A study of Mus musculus with 24 samples.

Results

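The proteasome subunit genes were followed in 24 libraries of whole mouse pancreas through caerulein pancreatitis. They were taken by symbol, as every row of the expression table named PSMA, PSMB, PSMC, PSMD, PSME, PSMF or PSMG followed by a number, which gave 49 of 36806 rows. Of these, 47 had at least 1 FPKM in at least 3 libraries and were tested, and 44 remained once the inducible catalytic genes Psmb8, Psmb9 and Psmb10 were set apart. Psma8, a testis isoform, and Psmb11, a thymus isoform, did not pass, with at most 0.487 and 0.02 FPKM. A second row named PSMD14 (ENSMUSG00000090649) stood at 0 in 19 of 24 libraries and is counted among the 44. The mice were C57BL, either heterozygous for Nr5a2 (+/-, HET) or wild type (+/+, WT). NR5A2 is a nuclear receptor that helps keep acinar cells, the makers of digestive enzymes, differentiated. Mice received saline or 7 hourly injections of 50 µg/kg caerulein, a cholecystokinin analog that causes a mild acute pancreatitis. Caerulein tissue was taken 8, 24 or 48 h from the first dose. Each of the 8 groups had 3 libraries of poly(A) RNA. The labels give neither age nor sex, do not name the deleted stretch of Nr5a2, and do not say that each library is a separate animal, so that p-values measure only the spread between these libraries.

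The proteasome is the protease that degrades ubiquitin-tagged proteins. Its barrel-shaped core is built from α-ring subunits (Psma genes), which gate the entrance, and β-ring subunits (Psmb genes), among which Psmb5, Psmb6 and Psmb7 cut the chain. A regulatory particle caps the core: its base holds unfolding ATPases (Psmc genes), and its lid and scaffold (most Psmd genes) bind and remove ubiquitin. In immune cells, and in other cells after interferon-γ, Psmb8, Psmb9 and Psmb10 replace the constitutive catalytic subunits, and the PA28 activator made by Psme1 and Psme2 opens the core, a form known for making peptides for MHC class I. The pancreas has one of the highest rates of protein synthesis of any tissue, and misfolded secretory proteins are sent to the proteasome.

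Values are FPKM, fragments scaled by gene length and library size, so that the number of reads behind each value is unknown. How the library scale was set is not given in the sources used here. Summed FPKM ran from 217205 to 1400108 over the libraries. Factors that bring libraries to a common median ratio, over genes at 1 FPKM or more in every library, ran only from 0.917 to 1.087. The values thus lay near a common median ratio before any rescaling. Differences are log2 fold changes of FPKM + 1 with their standard error (SE), from 1 limma model of all 24 libraries, and a gene is called where the p adjusted by Benjamini-Hochberg over all tested genes is under 0.05. The library guide changed with time: saline and 24 h libraries followed an earlier guide and 8 h and 48 h libraries a v2 guide, apart from 1 WT saline library that neither list names. For 8 h and 48 h against saline, guide and time therefore cannot be told apart. Comparisons of 24 h with saline, 48 h with 8 h and HET with WT at one condition lie within one guide. For those that use WT saline this is unknown for the unlisted library. The average of HET minus WT over the 4 conditions draws on both guides. The share of summed FPKM taken by digestive enzyme and Reg genes, which acinar cells express, was 53.4 to 56.9% in HET and 48.5 to 59.8% in WT saline libraries, and 4.60 to 34.4% in HET and 34.9 to 48.5% in WT at 48 h. Since this share changed with time and genotype, results are also given with libraries rescaled to sums that omit these genes, called the enzyme-free rescaling. The 10 highest other genes still held 30.49 to 51.39% of these sums in saline libraries and 31.36 to 44.46% at 8 h. At 24 h they held 10.45 to 19.6%, and at 48 h 15.99 to 48.39%. Values under the enzyme-free rescaling thus still depend on a few high genes whose share changed with time. Nr5a2 itself had 8.01 to 9.09 FPKM in HET and 9.26 to 12.6 FPKM in WT saline libraries, and 1.88 to 2.15 in HET and 2.25 to 3.2 in WT at 8 h. At 24 and 48 h the genotypes overlapped for Nr5a2, and its mean difference over the 4 conditions was -0.29 ± 0.09 (SE), with an adjusted p of 0.0367 (limma). HET 24 h replicate 1 stood apart: 35 of the 43 symbols (the 44 without the second PSMD14 row) were highest there among the 3 HET 24 h libraries. Likewise 30 of the 43 were highest in HET saline replicate 1 among the HET saline libraries. In WT at 24 h, 26 were highest in replicate 3. HET saline replicate 1 also had the largest summed FPKM of its group, 1400108 against 755744 and 745601. It enters every comparison of HET with saline. WT 24 h replicate 1 stood apart for the interferon-responsive members described below.

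Promoter sequence is shown for 5 members that carry the results: Psmd8 rose most at 8 h, Psmb3 is a core β gene that fell at 8 h, Psmd4 differed between the genotypes in its 24 h response, and Psme1 and Psmb8 are interferon-responsive genes that rose at 24 h, Psme1 in both genotypes and Psmb8 in WT. The windows run from 250 bases before to 50 bases after the start, 5′ to 3′ on the strand of the gene, from RefSeq on GRCm38.p6. Capitals mark matches on either strand to TGACNNNGC (the core of the antioxidant response element), CCAAT (the CCAAT box), the core of the interferon-stimulated response element (GAAA repeated after any 2 bases) or TTCNNNGAA (the gamma-activated site). No match overlapped another in these windows, and the Psmd8 window held none of the 4.
Psmd8, chr7:29180624-29180923, minus strand: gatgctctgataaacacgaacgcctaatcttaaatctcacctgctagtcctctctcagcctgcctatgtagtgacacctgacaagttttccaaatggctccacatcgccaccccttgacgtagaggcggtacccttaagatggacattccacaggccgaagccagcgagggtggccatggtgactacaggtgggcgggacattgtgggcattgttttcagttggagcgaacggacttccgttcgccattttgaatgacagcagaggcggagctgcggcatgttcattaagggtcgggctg
Psmb3, chr11:97703184-97703483, plus strand: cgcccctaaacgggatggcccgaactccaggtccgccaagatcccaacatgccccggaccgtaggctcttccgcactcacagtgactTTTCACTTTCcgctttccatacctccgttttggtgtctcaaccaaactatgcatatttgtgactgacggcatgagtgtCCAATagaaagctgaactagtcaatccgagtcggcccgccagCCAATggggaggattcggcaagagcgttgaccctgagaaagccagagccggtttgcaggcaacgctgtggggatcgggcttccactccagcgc
Psmd4, chr3:95042565-95042864, minus strand: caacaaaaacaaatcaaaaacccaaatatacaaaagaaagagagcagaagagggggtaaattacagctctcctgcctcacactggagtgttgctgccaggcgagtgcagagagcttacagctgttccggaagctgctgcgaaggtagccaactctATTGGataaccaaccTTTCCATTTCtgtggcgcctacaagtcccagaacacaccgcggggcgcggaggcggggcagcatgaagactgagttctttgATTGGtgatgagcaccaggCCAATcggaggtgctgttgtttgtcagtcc
Psme1, chr14:55578244-55578543, plus strand: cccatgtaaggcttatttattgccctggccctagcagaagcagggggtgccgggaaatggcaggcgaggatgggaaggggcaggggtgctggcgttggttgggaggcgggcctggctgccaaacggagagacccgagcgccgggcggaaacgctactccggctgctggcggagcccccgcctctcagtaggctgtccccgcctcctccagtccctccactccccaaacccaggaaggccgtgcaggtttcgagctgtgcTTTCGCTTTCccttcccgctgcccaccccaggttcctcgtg
Psmb8, chr17:34197945-34198244, plus strand: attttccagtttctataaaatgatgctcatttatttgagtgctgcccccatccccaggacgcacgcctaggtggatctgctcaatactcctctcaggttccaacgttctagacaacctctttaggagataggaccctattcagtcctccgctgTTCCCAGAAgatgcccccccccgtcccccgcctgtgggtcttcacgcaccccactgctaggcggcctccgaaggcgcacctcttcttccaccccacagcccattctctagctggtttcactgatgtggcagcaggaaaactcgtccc

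RefSeq windows were found for 40 of the 49 members, 43 windows in all. The interferon-stimulated core was in the windows of 5 of the 40 genes (12.5%), Psmb3, Psmd4, Psmd9, Psme1 and Psmg4, against 3.99% of the 27025 genes with a window. The antioxidant core was in 15% of member genes and 14% of all genes, CCAAT in 35% and 41.1%, and the gamma-activated site in 7.5% and 9.55%. These are letter matches, not sites.

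In WT saline pancreas the subunit genes differed widely in level, although most encode parts of one complex. The 7 core β genes had WT saline means of 19.8 to 85.8 FPKM, with Psmb4 the highest and Psmb3 the lowest. The 7 core α genes spanned 5.19 FPKM (Psma5) to 50.4 FPKM (Psma7), and the 6 ATPase genes 9.76 to 63.1 FPKM. The assembly chaperones, which are not part of the finished particle, had lower medians. Psmg1 to Psmg4, which help build the core, had 3.03 to 10.3 FPKM with a median of 5.295. The base chaperones Psmd5, Psmd9 and Psmd10 had 1.96 to 9.03 FPKM with a median of 4.40. The medians of the core α, core β and ATPase genes were 26.9, 46.6 and 21.4 FPKM. Both chaperone ranges overlapped that of the core α genes. Within groups the steadiest member was Psmc1, an ATPase of the base, with an SD of 0.10 on the log2 scale. Psmd13, a lid gene, was the least steady of the well expressed members outside the interferon-responsive genes. It had 33.1 to 158 FPKM over all libraries and a within-group SD of 0.53.

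Over the time course the members did not move as one block, and some parts of the particle held both rises and falls. Of the 43 symbols, 27 in HET and 25 in WT had their highest mean at 24 h, and 23 in HET and 17 in WT their lowest at 8 h. In WT the lowest mean was as often at 48 h (17), and in HET it was there for 11. At 8 h, several lid genes and the activator Psme3 were higher than in saline while several core β genes were lower. Among the ATPase genes Psmc6 was higher there and Psmc1 and Psmc4 were lower, in both genotypes. At 24 h, α-ring, PA28 and several regulatory genes were higher, and at 48 h most members were not called against saline.

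**Figure D1:**
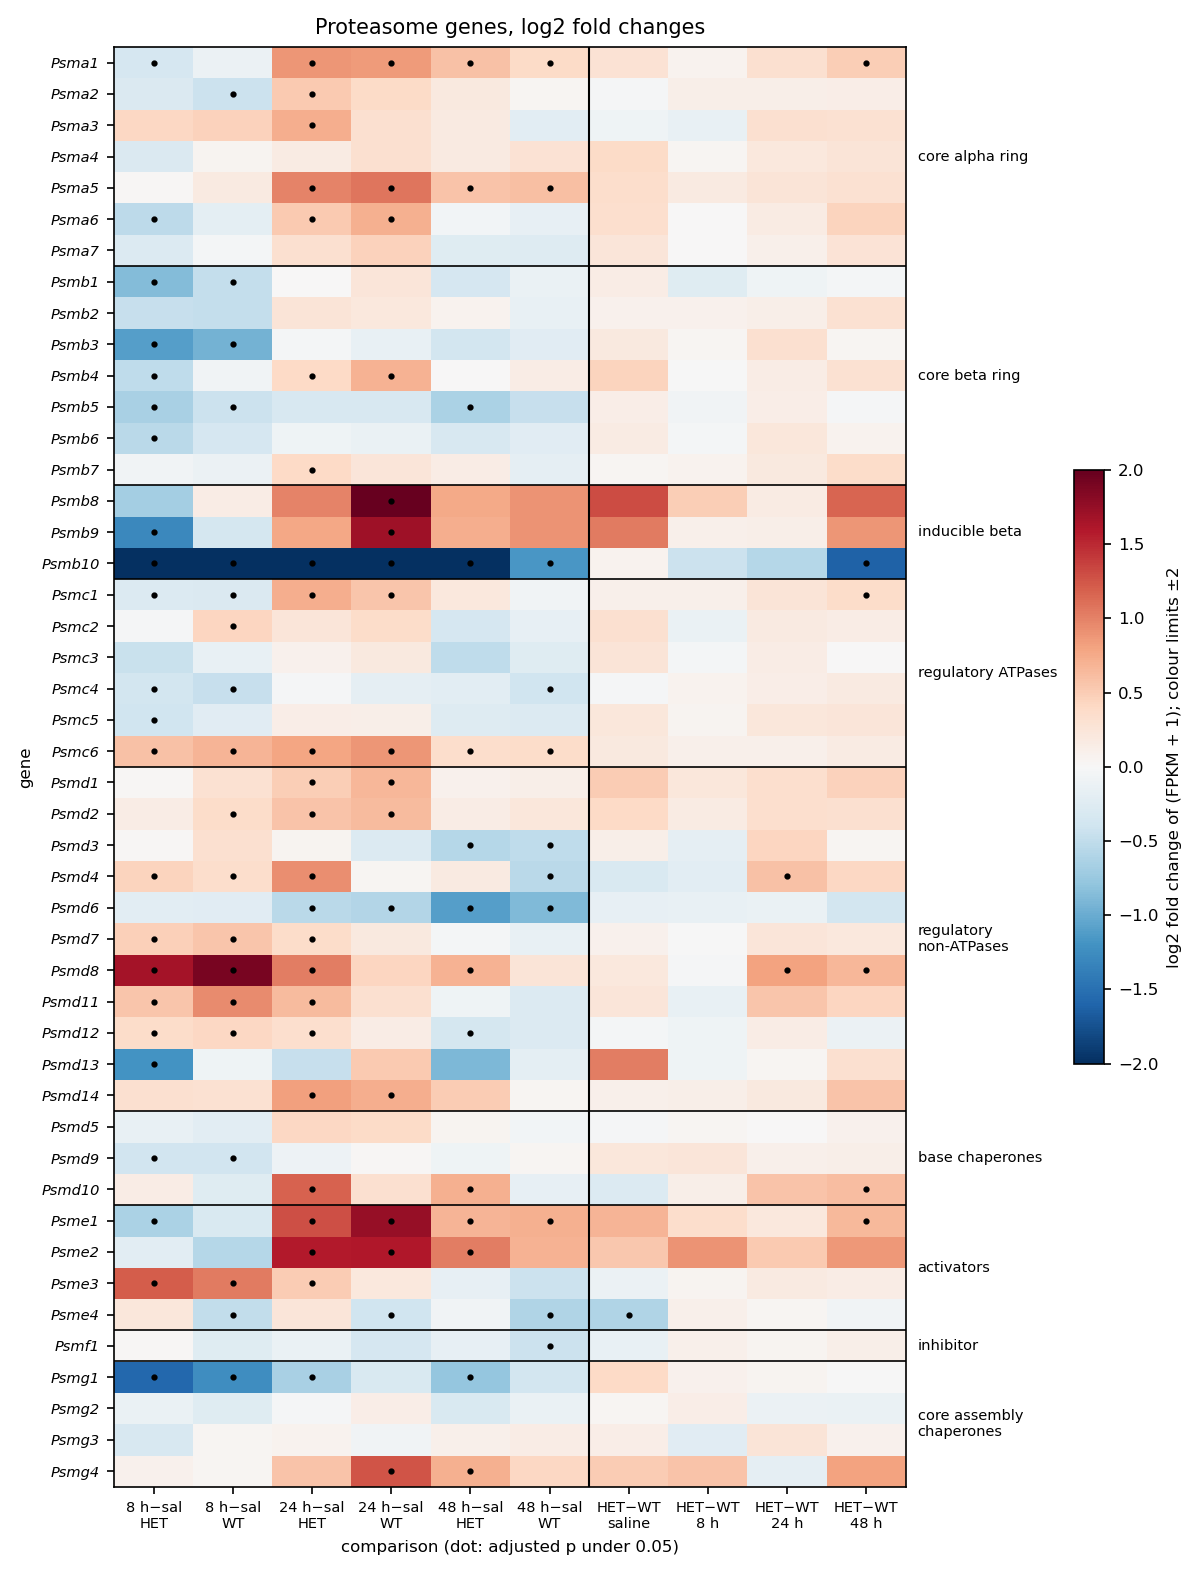
Log2 fold changes of (FPKM + 1) for 46 tested proteasome genes (rows, by part of the particle) in 6 comparisons with saline and 4 of HET with WT (columns), with a dot where the adjusted p was under 0.05. Psmd8 is the darkest red at 8 h (1.66 in HET and 1.90 in WT), Psme1 and Psme2 are red at 24 h, and Psmb10 is blue at every time after caerulein.

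At 8 h, several genes of the lid and the nuclear activator Psme3 were higher in both genotypes, and 3 genes of the core β ring and the assembly chaperone Psmg1 were lower. Psmd8, a lid subunit, had the largest rise of any member at 8 h. It had 121, 122 and 125 FPKM in HET 8 h libraries, against 50, 34.5 and 32 FPKM in HET saline libraries, and 118, 117 and 141 FPKM in WT 8 h libraries, against 35.1, 36 and 27.6 FPKM in WT saline libraries. Every 8 h library lay above every saline library, and the difference was 1.66 ± 0.17 (SE) in HET (limma, adjusted p = 1.41e-07) and 1.90 ± 0.17 in WT (limma, adjusted p = 2.56e-08). Psme3 encodes PA28γ, an activator of the core found in the nucleus. Its values were 37.7, 40.2 and 37.2 FPKM in HET and 36.6, 35.2 and 38.8 FPKM in WT at 8 h, against 15.6, 15.1 and 17.4 FPKM in HET and 26.5, 15.6 and 12.7 FPKM in WT saline. The 8 h libraries were again all higher, by 1.21 ± 0.18 in HET (limma, adjusted p = 1.18e-05) and 1.04 ± 0.18 in WT (limma, adjusted p = 7.39e-05).

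Among the other members that rose at 8 h were Psmc6, an ATPase of the base, by 0.59 in HET and 0.68 in WT, and Psmd7, a lid subunit, by 0.48 in HET and 0.56 in WT. Psmd11, also of the lid, rose by 0.55 in HET and 0.95 in WT. In all, 7 of 44 members rose in HET, against 30.7% of all tested genes, and 9 of 44 rose in WT, against 28.2% of all genes. The 7 HET members were all among the 9 of WT: Psmc6, Psmd4, Psmd7, Psmd8, Psmd11, Psmd12 and Psme3. By part, 5 of 12 regulatory non-ATPase rows rose in HET and 6 of 12 in WT.

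Psmb3, a non-catalytic β-ring subunit, had 8.97, 11.7 and 9.9 FPKM in HET and 10.3, 9.94 and 9.26 FPKM in WT at 8 h. Its saline values were 32.8, 15.2 and 23.6 FPKM in HET and 19, 19.6 and 20.8 FPKM in WT, so that the groups did not overlap. The change was -1.10 ± 0.23 in HET (limma, adjusted p = 0.000418) and -0.94 ± 0.23 in WT (limma, adjusted p = 0.00176). Psmg1, a chaperone that builds the α ring, had 3.81, 4.26 and 3.86 FPKM in HET and 4.08, 4.44 and 2.78 FPKM in WT at 8 h, against 16.6, 10.6 and 14.6 FPKM in HET and 12.9, 9.87 and 8.16 FPKM in WT saline. It fell by 1.56 ± 0.18 in HET (limma, adjusted p = 3.93e-07) and by 1.24 ± 0.18 in WT (limma, adjusted p = 8.17e-06), the largest fall outside Psmb10. Psmb1, a further β-ring subunit, fell by 0.86 in HET and 0.47 in WT, and the catalytic Psmb5 by 0.65 and 0.44.

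Of the 7 core β genes, 5 fell in HET and 3 in WT, and all 7 had negative values in both genotypes. Over the 44 members 14 fell in HET, against 24.5% of all genes, and 9 fell in WT, against 22.8% of all genes. Shared between the genotypes were 7 of the 14 and 7 of the 9, namely Psmb1, Psmb3, Psmb5, Psmc1, Psmc4, Psmd9 and Psmg1. Without HET saline replicate 1, 8 members rose and 5 fell in HET. Under the enzyme-free rescaling 7 rose and 4 fell in HET, and with libraries scaled by the median ratio 6 rose and 11 fell in WT. Of the other activators, Psme1 fell in HET (-0.63, adjusted p = 0.0139, limma), a call lost under the enzyme-free rescaling, and had a value of -0.31 in WT that was not called, and Psme2 had values of -0.21 in HET and -0.57 in WT, neither called. Psme4, encoding the activator PA200, fell in WT (-0.49, adjusted p = 0.00531, limma) and had a value of 0.22 in HET that was not called. The median member changed by -0.18 in HET and -0.14 in WT, and the median of all tested genes by 0.01 and 0.05.

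**Figure D2:**
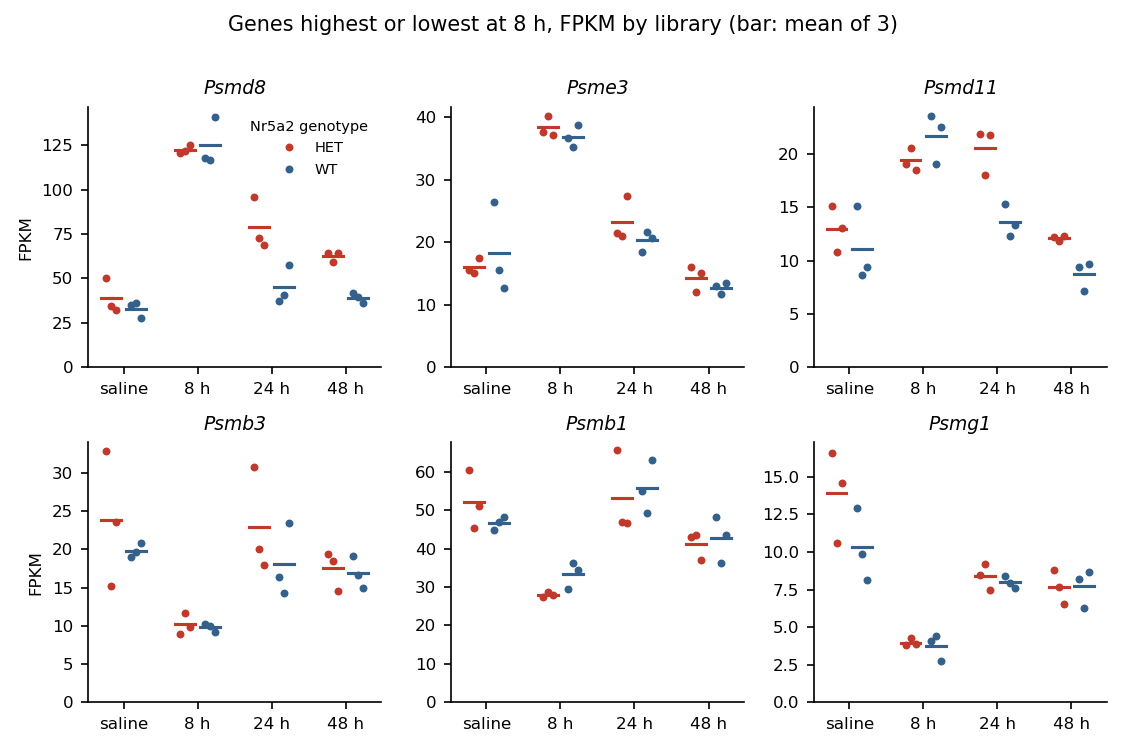
FPKM (linear axis) of 6 genes in each library by condition, HET left of WT, with bars at the mean of 3 libraries. Psmd8 and Psme3 are highest at 8 h in both genotypes and Psmd11 in WT (in HET it averaged 20.6 FPKM at 24 h and 19.4 FPKM at 8 h), Psmd8 lies between 117 and 141 FPKM at 8 h, and Psmb3, Psmb1 and Psmg1 are lowest there.

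The genes that supply the proteasome and feed it moved in the same comparison. Of 24 tested partner genes outside the PSM names, 14 rose and 3 fell in HET at 8 h, and 12 rose and 5 fell in WT. Of all tested genes, 30.7% rose and 24.5% fell in HET, and 28.2% rose and 22.8% fell in WT. The median partner changed by 0.55 in HET and 0.32 in WT. Ddi2, the protease that activates the transcription factor NRF1, rose by 1.49 in HET (limma, adjusted p = 1.11e-08) and 1.20 in WT (limma, adjusted p = 2.32e-07). Nfe2l1, the gene of NRF1, which drives proteasome gene expression when proteasome activity is short, rose by 1.31 in HET and 0.86 in WT. Akirin2, needed for import of proteasomes into the nucleus, rose by 1.40 in HET and 1.34 in WT, and Zfand2a, a proteasome-binding stress gene, by 2.41 and 2.11. Uba6, a ubiquitin-activating enzyme, rose by 1.49 in HET and 1.56 in WT. Nfe2l1 was chosen here after its values were seen.

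At 24 h proteasome genes were more often higher than lower in both genotypes, led by the PA28 pair and by α-ring and base genes. This comparison lies within one library guide, apart from the unlisted WT saline library. Psme1, the α subunit of PA28, had 74.4, 55.8 and 63.2 FPKM in HET 24 h libraries, against 25.5, 31.4 and 21.3 FPKM in HET saline libraries. In WT it had 67.6, 51.9 and 47.9 FPKM at 24 h, against 15.6, 18.4 and 13.7 FPKM in saline. Neither genotype's groups overlapped, and the difference was 1.28 ± 0.21 in HET (limma, adjusted p = 6.38e-05) and 1.74 ± 0.21 in WT (limma, adjusted p = 3.78e-06). Psme2, the β subunit of PA28, had 278, 173 and 177 FPKM in HET at 24 h, against 96.8, 72.6 and 43.7 FPKM in HET saline. In WT its values were 240, 126 and 93.7 FPKM at 24 h, against 30.8, 34.7 and 90.6 FPKM in saline, which left the groups just apart. It rose by 1.58 ± 0.37 in HET (limma, adjusted p = 0.00191) and 1.60 ± 0.37 in WT (limma, adjusted p = 0.00217).

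Psma1, an α-ring subunit, had 41.8, 32.8 and 34.3 FPKM in HET and 26.1, 27.4 and 32.8 FPKM in WT at 24 h, against 22.2, 17.9 and 17.3 FPKM in HET and 16.9, 12.8 and 16.8 FPKM in WT saline. The rise was 0.89 ± 0.14 in HET (limma, adjusted p = 4.04e-05) and 0.85 ± 0.14 in WT (limma, adjusted p = 8.78e-05). Psmc1 rose by 0.72 in HET and 0.56 in WT, Psmc6 by 0.80 and 0.89, and Psma5 by 0.99 and 1.07. Psmd10, or gankyrin, a chaperone of the base, rose in HET by 1.17 (limma, adjusted p = 9.23e-05) and had a value of 0.33 in WT that was not called. The lid gene Psmd8 was still 1.02 above saline in HET (limma, adjusted p = 0.000107), and its WT value of 0.43 was not called.

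Counting all parts, 21 of 44 members rose in HET at 24 h, or 47.7%, against 23.9% of all tested genes. In WT 12 of 44 rose, or 27.3%, against 20.5% of all genes. Of these, 11 rose in both genotypes: Psma1, Psma5, Psma6, Psmb4, Psmc1, Psmc6, Psmd1, Psmd2, Psmd14, Psme1 and Psme2. By part, 5 of 7 core α genes rose in HET and 3 of 7 in WT, and 2 of 7 core β genes in HET and 1 of 7 in WT. Only 2 members fell in each genotype, Psmd6 and Psmg1 in HET, against 19.8% of all genes, and Psmd6 and Psme4 in WT, against 18.7% of all genes. All turned positive under the enzyme-free rescaling, to 0.54 for Psmd6 and 0.36 for Psmg1 in HET and to 0.30 for Psmd6 and 0.43 for Psme4 in WT. There 37 members rose and 0 fell in WT. The median member changed by 0.38 in HET and 0.28 in WT, and the median of all genes by 0.06 and 0.05. Under the rescaling the all-gene median itself moved to 0.81 in HET and 0.66 in WT, and the members' median lay 0.60 and 0.46 above it, further than the 0.32 and 0.23 of the unscaled values.

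**Figure D3:**
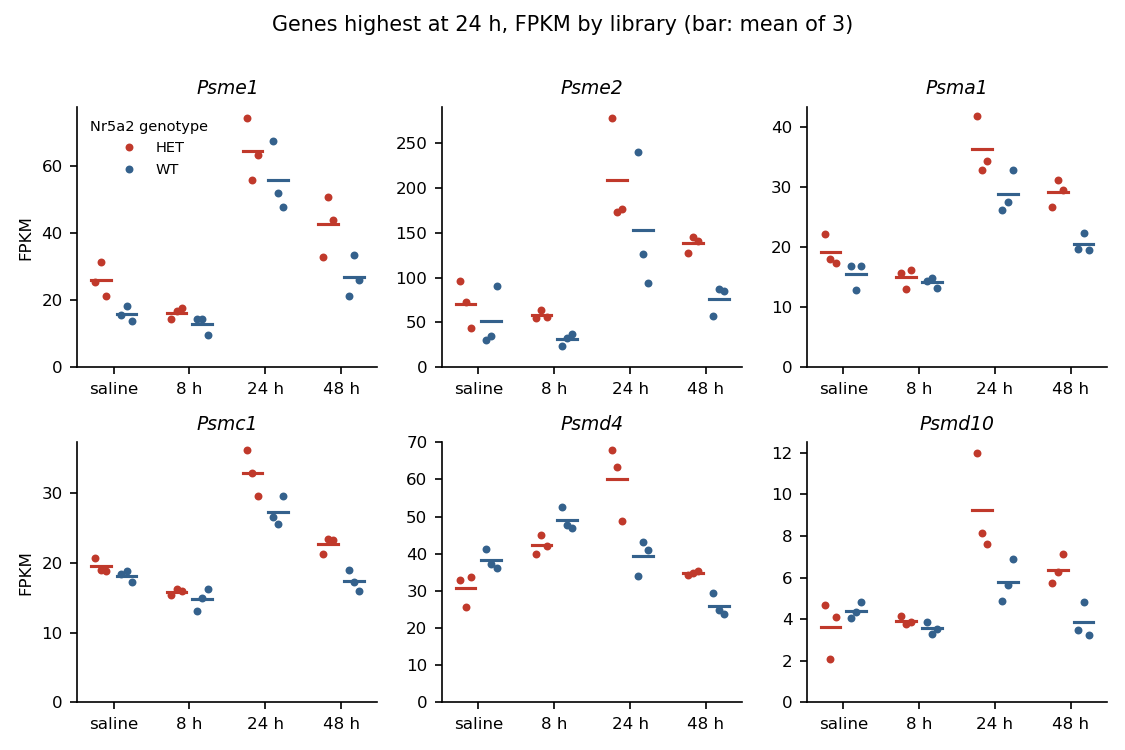
FPKM (linear axis) of 6 genes in each library by condition, HET left of WT, with bars at the mean of 3 libraries. Psme1, Psme2, Psma1 and Psmc1 are highest at 24 h in both genotypes, and Psmd4 at 24 h lies at 48.9 to 67.8 FPKM in HET and 33.9 to 43.1 FPKM in WT.

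Markers of other cell types were followed in the same comparison. The summed level of 15 macrophage and neutrophil markers was 1040 to 1690 FPKM in HET and 622 to 1235 FPKM in WT at 24 h, against 233 to 542 FPKM in HET and 75.7 to 210 FPKM in WT saline. Of 14 tested markers 12 rose in HET and 11 in WT. The 12 lymphocyte markers summed to 2.66 to 12.3 FPKM in HET and 4.86 to 73.9 FPKM in WT at 24 h. In saline they summed to 11.0 to 40.7 FPKM in HET and 2.60 to 23.3 FPKM in WT. Of 9 tested, 0 were called in either genotype. The 13 stromal markers summed to 496 to 654 FPKM in HET and 528 to 1012 FPKM in WT at 24 h. In saline they summed to 415 to 767 FPKM in HET and 244 to 326 FPKM in WT. Of these 13, 0 rose and 4 fell in HET, and 9 rose and 1 fell in WT. Of all tested genes, 23.9% rose and 19.8% fell in HET, and 20.5% rose and 18.7% fell in WT. In whole tissue, a change in the number of cells of a type and a change in RNA per cell cannot be told apart, and the part of these cells in the members' rise was not tested.

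The 24 h response of Psmd4, a ubiquitin receptor of the regulatory particle, differed between the genotypes. Psmd4 had 67.8, 63.3 and 48.9 FPKM in HET at 24 h, against 33, 25.8 and 33.7 FPKM in HET saline. In WT it had 33.9, 43.1 and 41 FPKM at 24 h, against 41.2, 37.2 and 36.2 FPKM in saline. The HET groups were far apart and the WT groups overlapped. The rise was 0.93 ± 0.13 in HET (limma, adjusted p = 1.88e-05) and 0.04 ± 0.13 in WT, and the difference of these was 0.90 ± 0.19 (limma interaction, adjusted p = 0.0167). Psmd4 was the 1 of 44 members called in that interaction, against 2.31% of all genes in either direction. The call was lost without HET 24 h replicate 1 or WT 24 h replicate 1 (adjusted p of up to 0.0542), and a second member joined it without HET saline replicate 1 or WT 24 h replicate 3. It was also lost under the enzyme-free rescaling and with the spread estimated from only the groups compared.

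At 48 h most members were not called against saline, and those higher in both genotypes were 2 α-ring genes, an ATPase and PA28α. In HET 8 members were higher than in saline, against 24.2% of all genes, and 5 were lower, against 20.0% of all genes. In WT 4 were higher, against 11.8% of all genes, and 6 lower, against 13.5% of all genes. Psma1, Psma5, Psmc6 and Psme1 were higher in both genotypes, with values of 0.58, 0.56, 0.35 and 0.68 in HET and 0.39, 0.61, 0.37 and 0.71 in WT. Psmd6, a lid subunit, had 25.8, 23.3 and 20.3 FPKM in HET and 37.8, 23 and 31.1 FPKM in WT at 48 h, against 68.8, 38.9 and 47.6 FPKM in HET and 54.9, 64.3 and 50.9 FPKM in WT saline. It fell by 1.10 ± 0.20 in HET (limma, adjusted p = 0.00019) and by 0.89 ± 0.20 in WT (limma, adjusted p = 0.00292), though neither was called under the enzyme-free rescaling. Psmd3, another lid subunit, fell by 0.58 in HET and 0.50 in WT, both of which turned positive under the enzyme-free rescaling (0.43 in HET and 0.07 in WT). The others lower in HET were Psmb5, Psmd12 and Psmg1, and in WT Psmc4, Psmd4, Psme4 and Psmf1, all of which but Psme4 also turned positive there. With that rescaling 38 members were higher and 0 lower in HET, and 11 higher and 0 lower in WT, but the median of all genes itself moved to 0.80 in HET and 0.42 in WT. The members' median lay 0.16 above it in HET and 0.02 below it in WT. Scaled by the median ratio, 4 were higher and 4 lower in WT. The WT count of 10 depended on single libraries: 4 members were called without WT 48 h replicate 2, and 6 without WT saline replicate 2 or WT 48 h replicate 3.

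Set against 8 h, within the v2 guide, 6 regulatory non-ATPase genes (Psmd3, Psmd6, Psmd7, Psmd8, Psmd11 and Psmd12) and Psme3 were lower at 48 h in both genotypes, and Psma1, Psma2, Psmb3, Psme1, Psme2 and Psmg1 higher. Of these falls 5 turned positive in HET under the enzyme-free rescaling, those of Psmd3, Psmd6, Psmd7, Psmd11 and Psmd12, and those of Psmd8 and Psme3 in HET were not called there. In WT the falls of Psmd8, Psmd11 and Psme3 were still called with that rescaling and the other 4 were not. Psma3, an α-ring gene, was lower at 48 h in WT (-0.68, adjusted p = 0.0176, limma), a call that was lost under it. In HET 14 members were higher at 48 h, against 23.4% of all genes, and 7 were lower, against 28.6% of all genes. In WT 7 were higher, against 22.5% of all genes, and 11 lower, against 27.4% of all genes. Under the rescaling 35 were higher and 0 lower in HET, and 24 higher and 3 lower in WT, where the median of all genes itself moved to 0.65 in HET and 0.46 in WT and the members' median lay above it by 0.41 in HET and 0.13 in WT. Scaled by the median ratio 12 were higher and 9 lower in WT. Psmd8 was lower at 48 h by 0.96 ± 0.17 in HET (limma, adjusted p = 0.000129), with 64.1, 59.4 and 64.4 FPKM at 48 h, and by 1.65 ± 0.17 in WT (limma, adjusted p = 2.09e-07), with 41.6, 39.4 and 36.4 FPKM at 48 h. Psme3 was lower at 48 h by 1.37 in HET and 1.47 in WT, and Psmd12, a lid subunit, by 0.71 in HET, which turned positive (0.20) under the rescaling, and by 0.69 in WT. In the other direction Psme1 was higher by 1.32 in HET and 1.02 in WT, Psma1 by 0.92 and 0.51, Psmg1 by 0.79 and 0.88, and Psmb3 by 0.72 and 0.72. Of the partner genes 15 of 24 were lower at 48 h than at 8 h in HET and 14 of 24 in WT. Of all genes, 28.6% were lower in HET and 27.4% in WT. Ngly1, the glycanase that processes NRF1, was lower by 1.75 in HET and 1.73 in WT. Members called in the 48 h minus 8 h interaction with genotype numbered 0 of 44, against 0.723% of all genes, with 4 at an unadjusted p under 0.05 in limma.

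Between the genotypes, every member called in the average over conditions was higher in HET pancreas, by less than 1 on the log2 scale, except Psmb10, which was lower (-0.64 ± 0.12, adjusted p = 0.00132, limma) and is described below. Averaged over the 4 conditions, 11 of 44 members were higher in HET, against 10.2% of all tested genes, and 0 were lower, against 8.40% of all genes, with 0 lower also at an unadjusted p under 0.05 in limma. These 11 were Psma1, Psma5, Psmb4, Psmc1, Psmd1, Psmd2, Psmd8, Psmd11, Psme1, Psme2 and Psmg4. The largest were Psme2 (0.71 ± 0.19, adjusted p = 0.0113, limma), Psme1 (0.47 ± 0.10, adjusted p = 0.00389, limma) and Psmg4, an assembly chaperone (0.43 ± 0.13, adjusted p = 0.03, limma). The smallest adjusted p was that of Psmd2, a scaffold and ubiquitin receptor of the base, at 0.30 ± 0.06 (limma, adjusted p = 0.00187). All 7 core α genes had positive values with a median of 0.23, and 2 were called. The median member differed by 0.14 and the median of all genes by 0.01. Without HET 24 h replicate 1 the count was 7.

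In saline pancreas the call was 1 of 44, Psme4, against 2.36% of all genes in either direction. Psme4 had 7.45, 10.3 and 11 FPKM in HET saline libraries, against 13.5, 15.7 and 15.8 FPKM in WT saline libraries, a difference of -0.61 ± 0.14 (limma, adjusted p = 0.0271). The groups did not overlap, but the call was lost without HET saline replicate 1, WT saline replicate 2 or WT saline replicate 3 (adjusted p of up to 0.069, limma). At 8 h no member was called, against 0.218% of all genes in either direction. At an unadjusted p under 0.05 limma gave 2 members there, and the smallest adjusted p values were 0.761 for Psme2 (0.90) and 0.849 for Psmg4 (0.57). Psme2 at 8 h had 54.9, 63.8 and 55.9 FPKM in HET and 23.6, 32.9 and 37.4 FPKM in WT, which did not overlap.

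At 24 h Psmd8 and Psmd4 were higher in HET, 2 of 44 against 6.50% of all genes in either direction, and 0 were lower, also at an unadjusted p under 0.05 in limma. Psmd8 had 95.7, 73.1 and 69 FPKM in HET and 37.3, 40.7 and 57.4 FPKM in WT, a difference of 0.81 ± 0.17 (limma, adjusted p = 0.00946), and Psmd4 differed by 0.59 ± 0.13 (limma, adjusted p = 0.0129). Neither gene's groups overlapped. Without HET 24 h replicate 1 neither was called, and 1 was called without HET 24 h replicate 2 or WT 24 h replicate 1. Without HET saline replicate 2 or WT saline replicate 1, which enter only the shared spread, 4 were called.

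At 48 h 5 of 44 members were higher in HET, against 5.85% of all genes, and 0 were lower, against 6.37% of all genes, again also at an unadjusted p under 0.05 in limma. Psmd8 had the smallest adjusted p, with the values given above for HET and WT at 48 h, a difference of 0.67 ± 0.17 (limma, adjusted p = 0.0179). Psmc1 had 21.3, 23.4 and 23.3 FPKM in HET and 18.9, 17.2 and 15.9 FPKM in WT (0.37 ± 0.10, adjusted p = 0.0259, limma). Psma1 had 26.6, 31.1 and 29.5 FPKM in HET and 19.7, 22.3 and 19.4 FPKM in WT (0.49 ± 0.14, adjusted p = 0.0264, limma). In these 3 genes every HET library lay above every WT library. Psmd10 (0.61, adjusted p = 0.0475, limma) and Psme1 (0.64, adjusted p = 0.0487, limma) were at the edge of the threshold, and Psme1 overlapped between the genotypes. The count rested on few libraries: it was 0 without HET 48 h replicate 3 and 1 without HET 48 h replicate 2, WT 48 h replicate 1 or WT 48 h replicate 3. It was 3 without any 1 of WT saline replicate 3, the 3 HET 8 h libraries, WT 8 h replicates 1 and 2, HET 24 h replicate 2 and WT 24 h replicate 2, and 8 without HET saline replicate 1. Estimating the spread from only the 2 groups compared, limma called 0 members in saline, at 24 h and at 48 h. Under the enzyme-free rescaling it called 25 members higher in HET at 48 h and 32 on the average over conditions, where the median of all genes moved as well, to 0.38 at 48 h and 0.17 on average.

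Myeloid markers and the enzyme and Reg genes of acinar cells moved with genotype as well. Of 14 myeloid markers 13 were higher in HET averaged over the 4 conditions, with a median of 1.08. Of 30 tested enzyme and Reg genes 22 were lower, with a median of -1.18. Of 9 lymphocyte markers 0 were called, and of 13 stromal markers 1 was higher and 0 were lower. Of 12 duct and islet markers 2 were higher and 1 was lower. Of all genes, 10.2% were higher and 8.40% lower in HET on that average. At 48 h the myeloid markers summed to 880 to 1549 FPKM in HET and 275 to 964 FPKM in WT, and the enzyme and Reg genes to 9988 to 96080 FPKM in HET and 137814 to 316827 FPKM in WT. Their part in the higher proteasome values was not tested. The members' own summed FPKM, without Psmb8, Psmb9 and Psmb10, was 1234 to 1323 in HET and 995 to 1056 in WT at 48 h, and 1579 to 2072 in HET and 1344 to 1671 in WT at 24 h.

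Of the inducible catalytic genes, Psmb8 and Psmb9 rose in WT at 24 h and Psmb10 fell in both genotypes. Psmb8 (LMP7), which takes the place of Psmb5, had 7.12, 14.6 and 6.67 FPKM in HET and 1.81, 2.74 and 5.06 FPKM in WT saline libraries. At 8 h it had 3.7, 6.49 and 5.81 FPKM in HET and 4.07, 4.87 and 1.9 FPKM in WT. At 24 h it reached 23, 16.4 and 17.6 FPKM in HET and 35.7, 10.9 and 11.7 FPKM in WT. The 48 h values were 10.3, 21.6 and 17.4 FPKM in HET and 2.96, 13.3 and 6.4 FPKM in WT. HET libraries were thus higher than WT in saline without overlap, and the genotypes overlapped at the other times.

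Psmb9 (LMP2), the counterpart of Psmb6, had 2.61, 9.82 and 9.73 FPKM in HET and 2.36, 2.96 and 2.58 FPKM in WT saline libraries, and 1.18, 3.76 and 1.76 FPKM in HET and 1.81, 2.59 and 1.31 FPKM in WT at 8 h. At 24 h it had 17.4, 7.45 and 12.5 FPKM in HET and 30, 6.56 and 5.99 FPKM in WT, and at 48 h 6.94, 17.5 and 12.1 FPKM in HET and 3.93, 10.1 and 4.62 FPKM in WT. Both genes were highest by far in WT 24 h replicate 1. At 24 h in WT Psmb8 rose by 2.15 ± 0.47 (limma, adjusted p = 0.00146) and Psmb9 by 1.70 ± 0.53 (limma, adjusted p = 0.0157). Without WT 24 h replicate 1, Psmb8 was still called (adjusted p = 0.0123) and Psmb9 was not (adjusted p = 0.12). In HET the 24 h values against saline, 1.00 for Psmb8 and 0.77 for Psmb9, were not called, and the difference between the genotypes' 24 h responses did not pass (limma interaction, -1.15 with adjusted p = 0.39 for Psmb8). At 8 h Psmb9 was lower than saline in HET (-1.29, adjusted p = 0.0457, limma), with overlapping groups and a call that leaving out any 1 of 13 libraries ended. In HET, 48 h against 8 h, Psmb8 rose by 1.43 (limma, adjusted p = 0.0159) and Psmb9 by 2.02 (limma, adjusted p = 0.00344).

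The constitutive counterparts moved less. Psmb5 had 60.4, 48.2 and 54.2 FPKM in HET and 39, 56.4 and 53.5 FPKM in WT saline, and 54.5, 38.4 and 38.4 FPKM in HET and 39.6, 34.6 and 44 FPKM in WT at 24 h. Psmb6 had 92, 48.9 and 53.9 FPKM in HET and 61.3, 61 and 45.6 FPKM in WT saline, and 72.7, 54.8 and 50.8 FPKM in HET and 39, 48.2 and 67.5 FPKM in WT at 24 h. Psmb7 had 41.4, 33.3 and 33 FPKM in HET and 33.1, 36.1 and 35.5 FPKM in WT saline, and 58.8, 45.8 and 40.1 FPKM in HET and 41.7, 33.8 and 49.8 FPKM in WT at 24 h. Across their 24 libraries these genes stayed within 29.8 to 60.4, 38.2 to 92 and 28.2 to 58.8 FPKM.

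Within a library, Psmb8 stood at 11.8 to 30.3% of Psmb5 in HET and 4.64 to 9.46% in WT saline, and at 42.2 to 45.8% in HET and 26.6 to 90.2% in WT at 24 h. The log2 ratio of Psmb8 to Psmb5 was -2.47 ± 0.71 in HET and -3.65 ± 0.42 in WT saline (SD, n = 3 each), a difference of 1.17 with p = 0.1 in an exact two-sided permutation test, the smallest that 3 against 3 allows. Psmb10 to Psmb7 was -1.30 ± 0.29 in HET and 0.68 ± 0.34 in WT at 48 h (SD, n = 3 each), a difference of -1.98, also at the smallest exact p of 0.1. Over the 12 tests of 3 ratios in 4 conditions the exact p values ran from 0.1 to 1 and the smallest adjusted p was 0.4, so that none could pass the threshold.

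**Figure D4:**
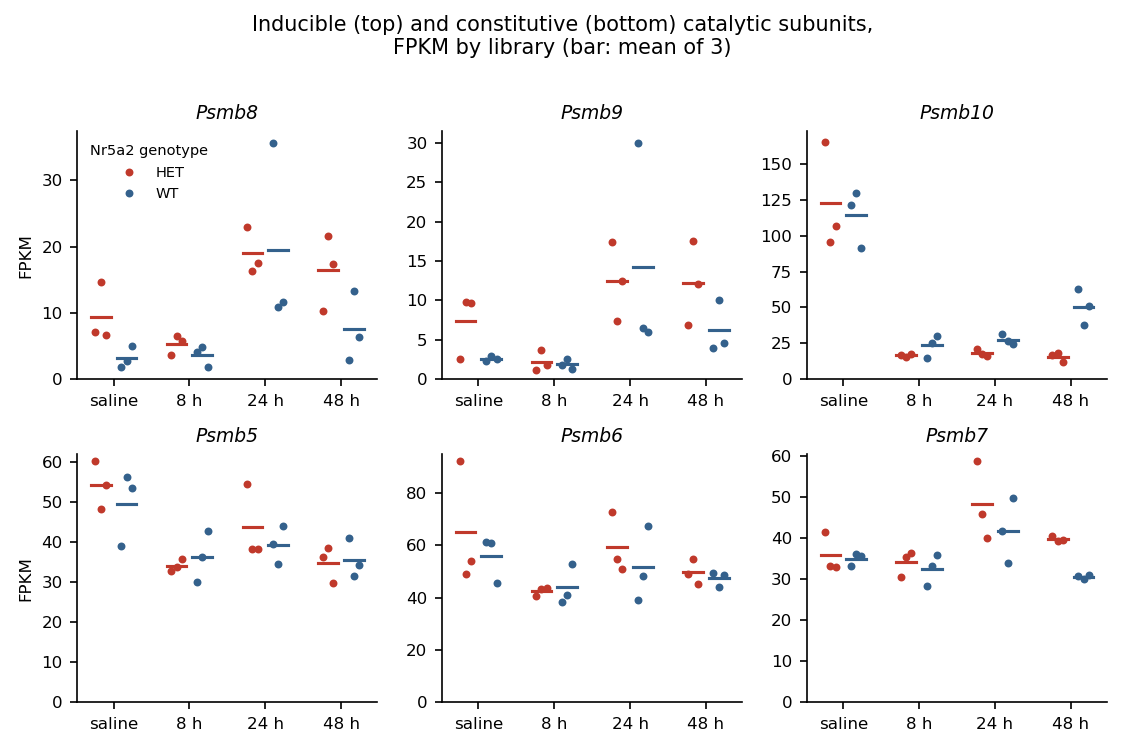
FPKM (linear axes, which differ between panels) of the inducible genes Psmb8, Psmb9 and Psmb10 (top) and the constitutive genes they replace, Psmb5, Psmb6 and Psmb7 (bottom), in each library by condition, HET left of WT, with bars at the mean of 3. WT 24 h replicate 1 is the highest point of Psmb8 (35.7 FPKM) and Psmb9 (30 FPKM), and Psmb10 is highest in saline (91.7 to 165 FPKM).

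Genes of antigen presentation, with which Psmb8 and Psmb9 share a stretch of chromosome 17 that holds Tap1 and Tap2, were followed as a list of 22. In the reference annotation (GRCm38) Tap1 overlaps Psmb9, and the antisense gene Gm20496 overlaps Psmb8, each on the opposite strand. Whether reads were counted by strand is not given, so that reads of these overlapping genes cannot be told apart. At 24 h 9 of 21 tested rose in HET, against 23.9% of all genes, and 14 of 21 in WT, against 20.5% of all genes. Tap2, a peptide transporter subunit, rose by 1.79 in HET (limma, adjusted p = 5.41e-05) and 1.70 in WT (limma, adjusted p = 0.00013), and the MHC class I gene H2-K1 rose by 1.64 in WT. Erap1, a peptide-trimming protease, rose by 1.06 in HET and 1.28 in WT. Averaged over the conditions 9 of 21 were higher in HET, against 10.2% of all genes. Psmb8 was the 1 inducible gene higher in HET on that average (0.78 ± 0.24, adjusted p = 0.0258, limma), a call lost without any 1 of 4 libraries, with adjusted p values of up to 0.051. Ptprc, the pan-leukocyte gene of CD45, had 13.2, 10.1 and 12 FPKM in HET and 21.6, 7.57 and 3.82 FPKM in WT 24 h libraries. The highest was WT replicate 1, as for Psmb8 and Psmb9. Other myeloid markers differed in this. Adgre1 (38.9 FPKM) and Laptm5 (84.5 FPKM) were also highest of the 24 h libraries in WT replicate 1. Cd68 was not, with 49.9, 67.4 and 56.3 FPKM in WT and 82.7, 75.5 and 82.3 FPKM in HET. Nor was Mrc1, with 8.12, 9.81 and 7 FPKM in WT and 16.5, 19.1 and 21.5 FPKM in HET. Ptprc and these markers were chosen after their values were seen.

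Psmb10 (MECL-1), the counterpart of Psmb7, was lower than in saline at every time after caerulein, also at 24 h, when Psmb8 and Psmb9 rose in WT. It had 165, 95.6 and 107 FPKM in HET and 121, 130 and 91.7 FPKM in WT saline libraries. Values were 16.6, 15.7 and 17.6 FPKM in HET and 15.1, 25.4 and 30.3 FPKM in WT at 8 h, and 20.9, 17.5 and 16.1 FPKM in HET and 31.2, 26.9 and 24.6 FPKM in WT at 24 h. At 48 h they were 16.7, 18.4 and 12.2 FPKM in HET and 63, 38 and 51 FPKM in WT. Every caerulein library lay below every saline library of its genotype, and at 24 and 48 h every HET library lay below every WT library. Against saline the change was -2.77, -2.66 and -2.86 in HET and -2.27, -2.0 and -1.17 in WT at 8, 24 and 48 h (limma, adjusted p of 1.17e-08 to 0.00173). HET was lower than WT at 48 h, by a log2 difference of -1.61 ± 0.24 (limma, adjusted p = 0.000399), a call kept without any 1 library, though not with the spread estimated from only these 2 groups (adjusted p = 0.0737). The 48 h minus 8 h interaction, -1.19, was not called (limma, adjusted p = 0.118).

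In the reference annotation (GRCm38) the next gene downstream of Psmb10, on the same strand and 1873 bases away, is Ctrl. It encodes a chymotrypsin-like enzyme of acinar cells. Lcat lies upstream on the same strand, 1107 bases away, and its values are not reported here. The antisense gene Gm16156 overlaps Psmb10. Whether reads were counted by strand is not given in the sources used here, so that reads of Psmb10 and of the antisense gene cannot be told apart. Ctrl had 88400, 48000 and 46900 FPKM in HET and 62900, 94700 and 84000 FPKM in WT saline libraries, and 2030, 932 and 47.3 FPKM in HET and 18400, 7570 and 11100 FPKM in WT at 48 h. Ctrl fell in the same groups as Psmb10, with changes of -2.47, -5.0 and -7.02 in HET and -2.48, -3.30 and -2.78 in WT at 8, 24 and 48 h (limma, all called). The sizes differed: in HET Ctrl at 48 h was 4.55 below its 8 h level (limma, adjusted p = 0.000109), while Psmb10 had 16.7, 18.4 and 12.2 FPKM at 48 h against 16.6, 15.7 and 17.6 FPKM at 8 h. The part of Ctrl or Lcat transcripts in the Psmb10 values was not tested.

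**Figure D5:**
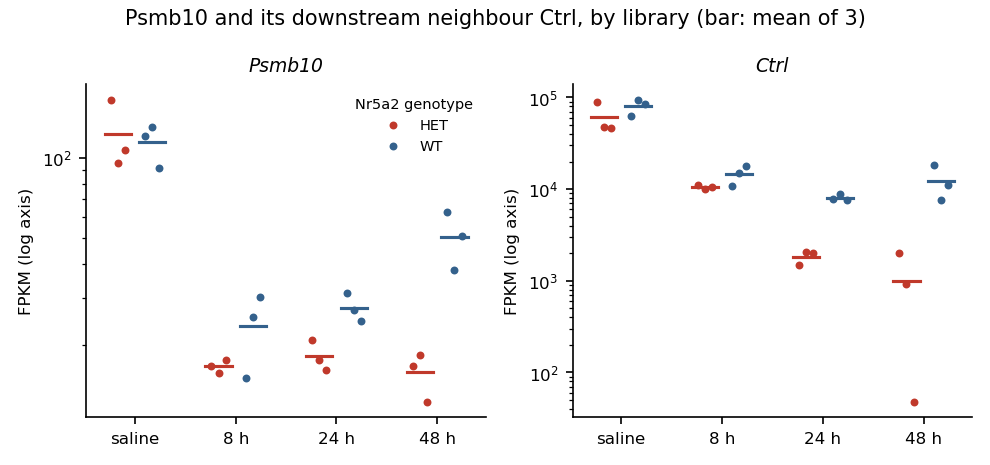
FPKM on log axes (which differ between panels) of Psmb10 and of its downstream neighbour Ctrl in each library by condition, HET left of WT, with bars at the mean of 3. Both are highest in saline and lower in HET than in WT at 48 h, where Ctrl spans 47.3 to 2030 FPKM in HET and 7570 to 18400 FPKM in WT, while HET Psmb10 stays at 12.2 to 18.4 FPKM.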

How the data were processed

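The authors deposited 1 table of FPKM values with a row per Ensembl gene. The submitters' processing notes name CASAVA (1.8), Bowtie, Cufflinks (2.0.2), Cuffnorm and the mouse build mm9 without their roles. The table's header names no unit, so that FPKM was inferred from Cuffnorm and the values. FPKM keeps no counts: depth is unknown and no counting interval can be given. Per the labels' protocols, RNA integrity numbers were 6.6 to 9.2.

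Analysis used log2(FPKM + 1), which understates changes of low genes, for 12871 genes reaching 1 FPKM in 3 or more libraries. A group at 0 throughout was set missing if all libraries of some other group reached 100 FPKM (68 combinations of gene and group). limma 3.58.1 (R 4.3.3) fitted 1 mean per group with 16 residual degrees of freedom and trend and robust moderation. Tests were two-sided, adjusted by Benjamini-Hochberg over all genes, with a threshold of 0.05, and the code was tested on simulated data. Between libraries at most 0.584% of values were identical. Comparisons with saline share the saline libraries. Remaining steps ran in Python 3.11.15 (scipy 1.17.1).

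The members, gene lists and tests were chosen with earlier results of these data known. Named with all values were the catalytic genes Psmb5 to Psmb10, Psme1 and Psme2. For each comparison up to 4 members per direction with the smallest adjusted p, the highest and lowest, and up to 3 genes of each other list were eligible. Further names complete a count or were chosen after their values were seen. Some genes of the other lists are not reported here. The reference annotation held 47 of the 49 member IDs. Alternatives were a pseudocount of 0.1, no filter, the enzyme-free rescaling, median-ratio scaling, zeros kept, the spread of only the groups compared, and leaving out each library.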

Additional observations from a re-analysis of the deposited data

Results flagged for a closer look

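Psmd4 differed between the genotypes in its change from saline to 24 h, by 0.90 on the log2 scale (limma interaction, adjusted p = 0.0167). The call was lost without HET 24 h replicate 1 or WT 24 h replicate 1, under the enzyme-free rescaling, and with the spread estimated from only the groups compared. It rose by 0.93 in HET, against a value of 0.04 in WT that was not called. At 24 h its libraries had 48.9 to 67.8 FPKM in HET and 33.9 to 43.1 FPKM in WT, and in saline 25.8 to 33.7 FPKM in HET and 36.2 to 41.2 FPKM in WT. HET was thus above WT at 24 h and below it in saline, without overlap. The same interaction from 8 to 48 h was 0.62, with an adjusted p of 0.14 (limma).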

How the results depend on the processing

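No paired analysis was possible because the labels give no replicate numbers that groups share. Of 173 called member results, 170 kept their call with a pseudocount of 0.1, 149 with no filter, 165 with median-ratio scaling, 173 with zeros kept and 119 under the enzyme-free rescaling, and 105 of 160 with the spread of only the groups compared. The enzyme-free rescaling gave 0 calls for HET against WT in saline, 4 at 24 h, 25 at 48 h and 32 on average, 0 for the 24 h interaction, 11 at 8 h in HET and 9 in WT, 37 at 24 h in WT and 41 in HET, 38 at 48 h in HET, and 35 for 48 h against 8 h in HET. The spread of only the groups compared gave 0 for HET against WT in saline, at 24 h and at 48 h, 0 for the 24 h interaction, 11 at 8 h in HET, 12 at 24 h in HET and 3 at 48 h in WT. For HET against WT at 48 h, a pseudocount of 0.1 and no filter gave 3 calls each, and no filter gave 7 on average.

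Under the rescaling 19 gene results turned positive. At 24 h these were Psmd6 (0.54) and Psmg1 (0.36) in HET, and Psmd6 (0.30) and Psme4 (0.43) in WT. At 48 h they were Psmd3 (0.43), Psmd12 (0.65), Psmb5 (0.40) and Psmg1 (0.19) in HET, and Psmd4 (0.0403), Psmd3 (0.0676), Psmc4 (0.17) and Psmf1 (0.0716) in WT. For 48 h against 8 h they were Psmd3 (0.31), Psmd11 (0.26), Psmd12 (0.20), Psmd6 (0.0468) and Psmd7 (0.40) in HET, and Psmc6 (0.31) and Psmc2 (0.0374) in WT. The cause was not tested.

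Leaving out 1 library gave 0 to 1 calls for HET against WT in saline, 0 (8 h), 0 to 4 (24 h), 0 to 8 (48 h) and 7 to 13 on average, and 0 to 2 for the 24 h interaction. Against saline it gave 13 to 22 at 8 h in HET and 13 to 20 in WT, 16 to 24 at 24 h in HET and 11 to 20 in WT, and 9 to 16 at 48 h in HET and 4 to 11 in WT. The HET minus WT log2 ratio of Psmb8 to Psmb5 had a span in saline of 0.76 to 1.41, then 0.14 to 0.79 (8 h), -0.29 to 0.55 (24 h) and 0.63 to 1.74 (48 h). Psmb9 to Psmb6 ran from 0.44 to 1.68, -0.17 to 0.34, -0.69 to 0.78 and 0.56 to 1.23 in the same order, and Psmb10 to Psmb7 from -0.12 to 0.15, -0.69 to -0.38, -0.99 to -0.65 and -2.16 to -1.82.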
